A study of Mus musculus with 30 samples.

Results

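Open chromatin of primitive type A spermatogonia (PriSG-A) was compared with that of pachytene spermatocytes (pacSC) in C57BL/6 mouse testis, on chromosomes 1 to 19. A region was counted as shared where the PriSG-A and pacSC peak lists overlapped by at least 1 bp. By this rule 13966 of 54413 PriSG-A regions and 15555 of 32902 pacSC regions were shared, out of 185395 regions in the 4 lists of the series over all chromosomes. A smaller group was singled out: shared regions with an overlap of 0 bp with the list of type A spermatogonia (SG-A), the stage between them. It held 698 PriSG-A and 654 pacSC regions.

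The PriSG-A list stands for 3 libraries of cells from mice at day 6 after birth, the SG-A list for 3 libraries at day 8, and the pacSC list and that of round spermatids (rST) for 2 libraries each from adults. All mice carried the same strain label, and no genotype or treatment is labelled. Testes were digested with collagenase IV and DNase I, and how the cell types were then separated was not stated in the labels used here. The labelled cell types were not checked against marker genes, because the lists hold no expression values and their positions match no annotation at hand. With 1 list per stage, replicate error could not be measured, so no stage difference carries a p-value. The 95% intervals below cover counting error only and treat neighbouring regions as independent. The read depth of the libraries is unknown, so a region that is not listed may have been below the calling threshold. Positions are those of the files, with starts converted to 1-based, on an assembly taken as unknown.

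Primitive type A spermatogonia are mitotic germ cells of the young testis that arise from gonocytes and feed the first rounds of spermatogenesis. Pachytene spermatocytes are in meiotic prophase, with homologous chromosomes fully synapsed and crossovers being formed. ATAC-seq uses the transposase Tn5, which inserts adapters where DNA is not wrapped in nucleosomes, so its peaks mark promoters, enhancers and other accessible sites. In mouse autosomes the centromere sits near the start of the coordinates, so the distal end is the one at high coordinates.

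Regions found at both stages were on the whole wider and stronger than the rest of each list. A rule of at least 1 bp of overlap itself favours wide regions, and its part in the width difference was not tested. The shared share was 25.7% of the PriSG-A list (95% Wilson interval 25.3 to 26.0) and 47.3% of the pacSC list (46.7 to 47.8). By length, shared regions made up 11.3 of 21.4 Mb listed in PriSG-A (52.6%) and 8.08 of 11.7 Mb listed in pacSC (69.1%). The stretches open in both lists amounted to 7.0 Mb, or 62.2% of the shared PriSG-A regions and 86.6% of the shared pacSC regions. The spermatogonial regions thus reached further beyond the common stretch than the pachytene ones.

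Shared PriSG-A regions had a median width of 746 bp (interval 733 to 758, n = 13966), against 138 bp (135 to 140, n = 40447) for PriSG-A regions not shared. In pacSC the medians were 379 bp (369 to 390) and 115 bp (113 to 116). The authors' signal value is an area over the peak. Divided by width, it gives an area per bp that can be read within a list but not between lists. Its median in PriSG-A was 1.10 for shared regions (1.08 to 1.11) and 0.432 for the rest (0.429 to 0.435). In pacSC it was 0.816 (0.804 to 0.830) and 0.470 (0.465 to 0.475). A −log10 q of at least 5, used here to mark strong regions, was reached by 32.7% of shared and 1.34% of not shared PriSG-A regions, and by 20.4% and 2.12% of those in pacSC. Most shared regions were thus below it, and 2338 of the 15555 shared pacSC regions were at most 100 bp wide. Of the 5113 PriSG-A regions that reached it, 89.4% (88.5 to 90.2) were shared, and of the 3538 in pacSC, 89.6% (88.5 to 90.6).

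The shared share climbed steeply at the top of each list. In the lowest width decile of PriSG-A (33 to 82 bp) 5.68% of regions were shared, in the eighth (414 to 649 bp) 34.0%, and in the highest (1019 bp and over) 82.1%. In pacSC the lowest and highest deciles gave 20.8% and 88.1%. By area per bp the lowest 4 deciles of PriSG-A were flat, between 8.95% and 9.58%, and the highest reached 85.6%. The lowest area was 20.0 in both lists, so the narrowest regions could not have the lowest areas per bp. Area per bp also went with sharing among regions of like width, though not in every class of pacSC. Among PriSG-A regions of 401 to 800 bp, the shared share was 17.9% for the lowest of 3 equal parts of the list by area per bp, 26.6% for the middle part and 54.9% for the highest. Among pacSC regions of 401 to 800 bp the 3 values were 49.7%, 64.6% and 80.3%. Among those of 101 to 200 bp they were 37.7%, 36.5% and 38.2%, and their intervals overlap.

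**Figure D1:**
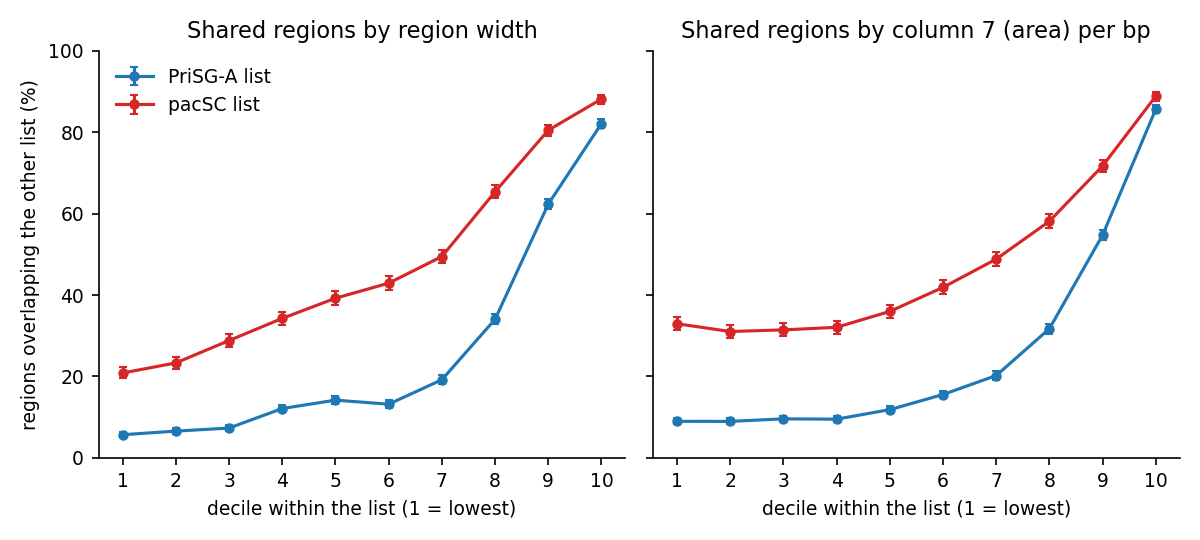
Percent of regions that overlap the other list, by decile of region width (left) and of area per bp (right) within the PriSG-A list (blue) and the pacSC list (red), chromosomes 1 to 19. Error bars are 95% Wilson intervals. Both lists rise to over 80% in the highest decile, from 5.68% (PriSG-A) and 20.8% (pacSC) in the lowest width decile.

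The overlaps formed 16598 pairs, of which 9847 were one-to-one, each region touching a single region of the other list. One PriSG-A region touched 2 or more pacSC regions in 16.1% of shared cases, and one pacSC region touched 2 or more PriSG-A regions in 6.10%. The PriSG-A region with most pacSC partners, 10, lay at chr8:19978546-19986159, and 2 others had 9, at chr8:19944379-19950187 and at chr1:85265622-85282898. All 3 were also listed in SG-A and rST. The reverse case reached 5 PriSG-A regions under a 2694 bp pacSC region at chr15:39028235-39030928. It was listed in SG-A and not in rST. At the limit of the rule, 82 pairs overlapped by 10 bp or less, and 542 PriSG-A regions that were not shared lay within 100 bp of a pacSC region.

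In one-to-one pairs the pachytene peak was usually the narrower and lay within the spermatogonial one. Median widths were 751 bp in PriSG-A and 491 bp in pacSC, and the median ratio of pacSC to PriSG-A width was 0.771 (0.761 to 0.781). The pacSC region was narrower in 7074 pairs (71.8%) and wider in 2743 (27.9%). It lay wholly inside the PriSG-A region in 54.3% of pairs, and the opposite held in 15.6%. Over the pairs, Spearman's rho was 0.606 for width and 0.466 for area per bp, as descriptions across regions that share their libraries.

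The same ratio was taken for the other stage pairs. In PriSG-A and SG-A pairs, the SG-A region was the wider in 75% of 22752 pairs (median ratio of SG-A to PriSG-A 1.34, 1.33 to 1.35). In SG-A and pacSC pairs, the median ratio of pacSC to SG-A was 0.553 (0.546 to 0.561, n = 10459). The wider side came from the longer list in each of the 3 stage pairs, the lists holding 54413 (PriSG-A), 85773 (SG-A) and 32902 (pacSC) regions. The part of list length or of depth in the ratio was not tested.

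**Figure D2:**
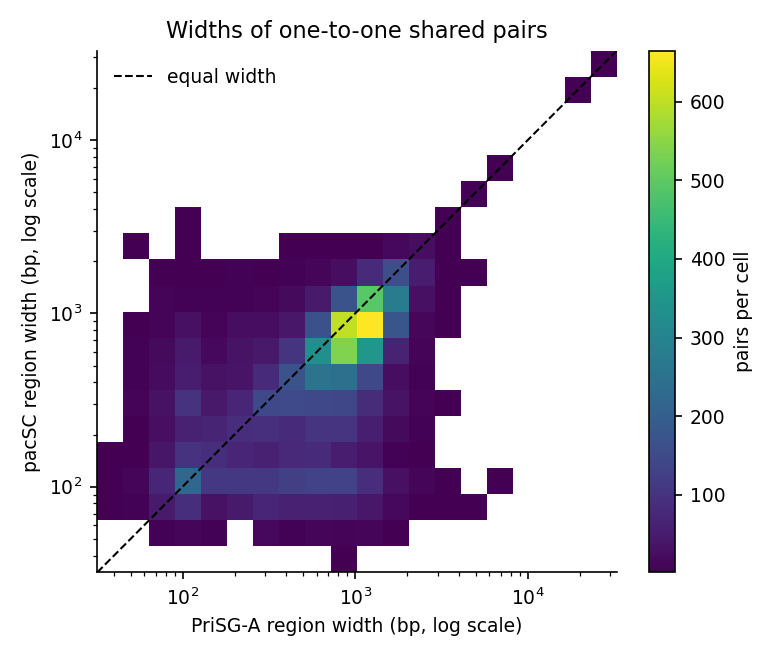
Widths of the 9847 one-to-one pairs, PriSG-A on the horizontal and pacSC on the vertical axis (bp, both log scale). Colour gives the number of pairs per cell, and the dashed line marks equal width. Most of the mass lies below the line, where 7074 pairs have a pacSC region narrower than its PriSG-A partner.

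The strongest points of paired regions lay close together. Pairing by overlap itself limits this distance to less than the widths of the 2 regions added together. No reference distance for unrelated summits was taken. Summits were taken as the authors' start plus summit offset. In one-to-one pairs the median distance between the 2 summits was 69 bp (66 to 72, n = 9847), with 23.7% of pairs within 20 bp, 59.6% within 100 bp and 97.7% within 500 bp. Both summits fell on the same base in 148 pairs. The sides were nearly even: the pacSC summit was at the higher coordinate in 49.6% of pairs (48.6 to 50.6) and at the lower in 48.9%. The pacSC summit lay inside the PriSG-A region in 93.2% of pairs, and the PriSG-A summit inside the pacSC region in 85.8%. The former was bound to hold in the 54.3% of pairs with the pacSC region wholly inside the PriSG-A region. The latter was bound to hold in the 15.6% with the opposite.

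Distances grew with width, from a median of 46 bp where the narrower region had at most 100 bp to 87 bp at 801 to 1600 bp and 145 bp (87 to 187, n = 158) above that. Summits of PriSG-A and SG-A lay closer together in some width classes. At up to 100 bp their median distance was 37 bp (35 to 38), against 46 bp (42 to 49) for PriSG-A and pacSC and 44 bp (41 to 48) for SG-A and pacSC. At 801 to 1600 bp their median distance was 50 bp (46 to 53, n = 4588), against 87 bp (80 to 96, n = 2151) for PriSG-A and pacSC and 76 bp (71 to 82, n = 2456) for SG-A and pacSC. The first interval overlaps neither of the others, which overlap each other. At 201 to 400 bp the medians were 71 bp (67 to 75), 79 bp (74 to 86) and 75 bp (68 to 82), and all 3 intervals overlap. At 401 to 800 bp they were 66 bp (63 to 71), 83 bp (76 to 88) and 72 bp (67 to 78), where the first interval overlaps the last but not that of PriSG-A and pacSC.

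The distances were not evenly spread. Among the 5084 PriSG-A and pacSC pairs with both regions at least 400 bp wide, 1071 (21.1%) had summits 0 to 19 bp apart. The count fell to 174 (3.42%) at 100 to 119 bp, was 250 (4.92%) at 120 to 139 bp and 239 at 140 to 159 bp, and declined again to 165 at 180 to 199 bp. The other 2 stage pairs showed the same dip, with 2.38% at 100 to 119 bp against 3.58% at 120 to 139 bp for PriSG-A and SG-A, and 2.91% against 4.25% for SG-A and pacSC. These comparisons share lists, so the repeats are not independent. In each of the 3 lists the smallest gap between neighbouring regions was 101 bp. Whether such a limit of the lists bears on the dip was not tested. The PriSG-A and pacSC pairs held fewer summits within 20 bp than PriSG-A and SG-A pairs, 21.1% against 30.6%.

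**Figure D3:**
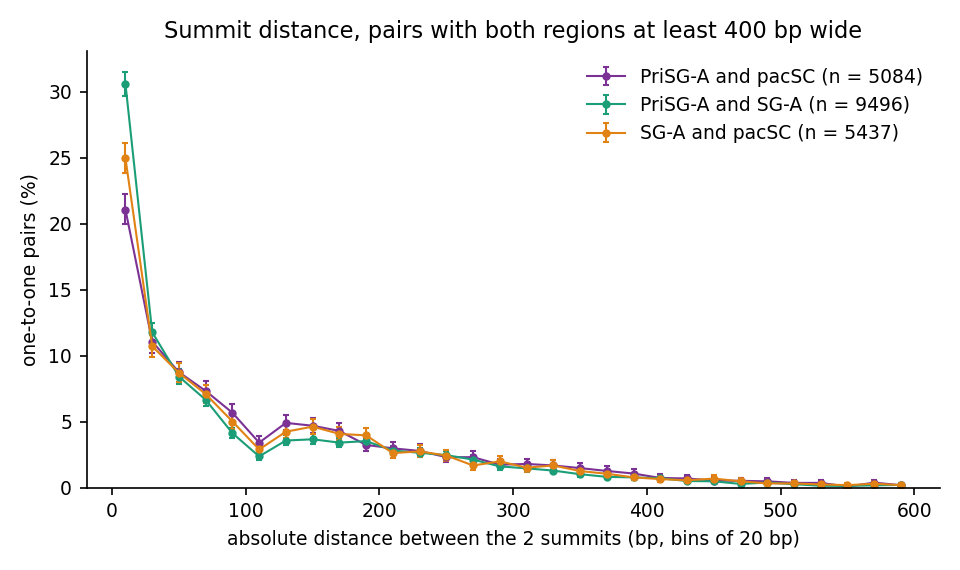
Percent of one-to-one pairs by absolute distance between the 2 summits, in bins of 20 bp up to 600 bp, for pairs with both regions at least 400 bp wide. Lines are the 3 stage pairs (purple PriSG-A and pacSC, n = 5084), and error bars are 95% Wilson intervals. All 3 lines dip at 100 to 119 bp and are higher at 120 to 139 bp.

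The one-to-one pairs of highest area per bp in both lists sat almost base for base on each other. The first lay at chr1:24618315-24623073 in PriSG-A and at chr1:24618314-24623073 in pacSC. The other 4 were at chr2:98506332-98507551, at chr2:98502333-98503199, at chr2:98504982-98505443, and at chr6:103598985-103599358 (PriSG-A coordinates). Their areas per bp ran from 24.6 to 43.1 in PriSG-A, against a list median of 0.503. Their summits were 0 bp apart in 2 pairs, and 2, 300 and 514 bp apart in the others. All 5 were also listed in SG-A and rST. The largest summit distances came from wide regions. The summits of the 22031 bp PriSG-A region at chr11:3026835-3048865 and its 21976 bp pacSC partner differed by -18887 bp (pacSC minus PriSG-A). The next distances were 2990 bp at chr11:3080577-3100107 and 2700 bp at chr2:27354336-27358535. No filter for repeated sequence was applied, so regions in multi-copy DNA cannot be told apart from single-copy ones here.

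Some shared pairs held opposite places in the lists. A PriSG-A region at chr3:19794280-19795670 (area per bp 2.89, rank 478 of its list by that value) held a 424 bp pacSC region with an area per bp of 0.0920, rank 32844. Conversely, a 244 bp PriSG-A region at chr5:144518995-144519238 (0.105, rank 53986) met a 359 bp pacSC region of 2.77, rank 640. The latter lay 8.02 Mb from the distal end. The other pairs of the first kind were at chr6:145881239-145881597 and at chr5:14984468-14987237. Those of the second kind were at chr19:58001018-58001183 and at chr13:105872057-105872263. All 6 pairs were present in SG-A. The ranks come from lists of different length and are given as values only.

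Of the strong regions, 544 in PriSG-A and 368 in pacSC had no counterpart. The PriSG-A region of highest signal value that was not shared lay at chr1:85104578-85110262 (signal value 10236, 920 bp from a pacSC region), followed by one at chr5:109980837-109984114 (8286, at 478 bp) and at chr1:85317793-85324841 (8110, at 33516 bp). All 3 were listed in SG-A and rST. In pacSC they were at chr8:130244921-130247365 (6360), at chr5:150625688-150628854 (6009) and at chr3:48189002-48191062 (5707). None of these 3 was listed in SG-A, and the one on chromosome 3 was listed in rST and lay 465 bp from a PriSG-A region. The first lay 1.34 Mb and the second 1.91 Mb from the distal end.

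Toward the distal chromosome end, sharing went opposite ways in the lists. Of PriSG-A regions in the distal 10 Mb, 44.9% (43.5 to 46.3) were shared, against 23.8% (23.4 to 24.2) elsewhere, a difference of 21.2 percentage points (19.7 to 22.6). Of pacSC regions there, 24.7% (23.8 to 25.6) were shared, against 55.0% (54.4 to 55.6), a difference of -30.3 points (-31.4 to -29.2). Both directions were seen on 19 of 19 autosomes. The distal PriSG-A share ran from 32.3% on chromosome 6 to 65.2% on chromosome 9, and the distal pacSC share from 14.0% on chromosome 3 to 35.8% on chromosome 4.

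The density of shared regions itself rose toward the end. PriSG-A regions shared with pacSC numbered 17.5 per Mb in the last 1 Mb, 9.24 between 5 and 10 Mb, and 4.80 beyond 80 Mb. PriSG-A regions not shared went the other way, with 12.9, 15.9 and 19 per Mb. In pacSC the regions not shared went from 59.1 per Mb in the last 1 Mb to 4.64 beyond 80 Mb, while the shared ones went from 16.3 to 5.59. The pacSC list covered 2.86% of the bases in the last 1 Mb and 0.381% beyond 80 Mb, so a PriSG-A region had more pachytene sequence around it near the end. The part of this in the PriSG-A share was not tested.

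The contrast held at matched width. Among PriSG-A regions of at most 100 bp, 23.0% of distal and 5.05% of other regions were shared, and among those of 801 to 1600 bp, 92.1% and 74.5%. Of 92 distal PriSG-A regions over 1600 bp, 91 were shared. Among pacSC regions of 401 to 800 bp the values were 38.9% distal and 79.8% elsewhere. The distal share was higher in PriSG-A and lower in pacSC in each of 6 width classes. With both lists limited to strong regions, 78.5% of 424 distal and 35.8% of 4689 other PriSG-A regions were shared, and 33.1% of 1010 distal and 66.9% of 2528 other pacSC regions. At the centromeric end no such contrast was seen: 25.5% (24.3 to 26.6) of PriSG-A and 47.3% (45.6 to 49.1) of pacSC regions in the first 10 Mb were shared, close to the lists as a whole.

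**Figure D4:**
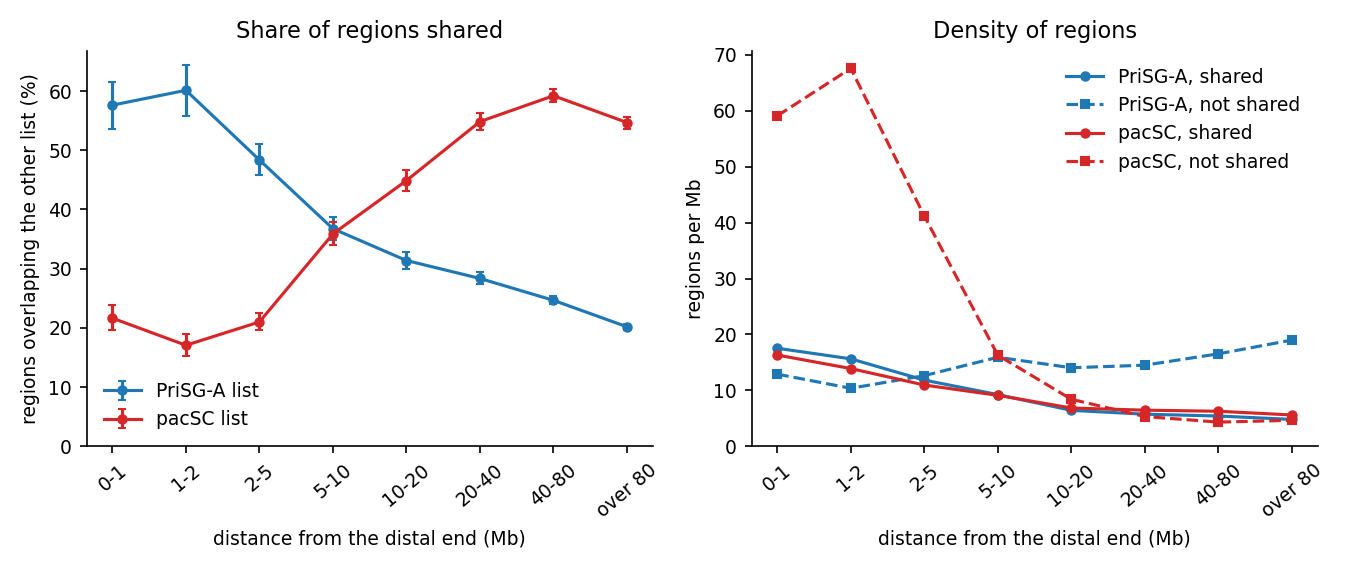
Left, percent of PriSG-A (blue) and pacSC (red) regions that overlap the other list, by distance from the distal end in Mb, with 95% Wilson intervals. Right, regions per Mb that are shared (solid) or not shared (dashed). The shared share falls from 57.6% to 20.2% in PriSG-A and rises from 21.6% to 54.7% in pacSC, and shared regions become sparser away from the end in both lists.

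Shared regions were spread over 2189 windows of 1 Mb, with a median of 5 PriSG-A regions in a window. The fullest, chromosome 8 from 19000001 to 20000000, held 66 shared of 156 PriSG-A regions, and 131 of its 132 pacSC regions were shared. The next were chromosome 11 from 120000001 to 121000000 (53 of 65 PriSG-A regions shared, but 43 of 100 in pacSC) and chromosome 19 from 4000001 to 5000000 (44 of 60, and 40 of 61). By chromosome, the shared share of PriSG-A regions ran from 19.6% on chromosome 3 to 38.7% on chromosome 19, and that of pacSC regions from 34.2% on chromosome 18 to 56.7% on chromosome 11.

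Regions open in both stages were rarely missing from the stage between. Of shared regions, 698 of 13966 in PriSG-A, or 5.00% (4.65 to 5.37), and 654 of 15555 in pacSC, or 4.20% (3.90 to 4.53), had no overlap with SG-A. Over all regions, 28.3% of PriSG-A and 46.6% of pacSC regions had none. Of the 16598 pairs, 609 had neither side in SG-A. In 101 pairs only the pacSC region touched SG-A, and in 75 only the PriSG-A region, so part of the group had a partner that was listed in SG-A.

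Seen from SG-A, 34.0% of PriSG-A regions present there and 4.54% (4.22 to 4.88) of those absent were shared with pacSC. For pacSC regions shared with PriSG-A the values were 84.8% and 4.26% (3.96 to 4.59). The gap held at matched width. Among PriSG-A regions of at most 100 bp it was 10.1% against 3.64%, and at 401 to 800 bp 42.3% against 5.66%. In pacSC it was 69.4% against 3.07% and 92.8% against 7.09%. Among pacSC regions absent from SG-A, the share rose from 3.07% (2.68 to 3.51) at up to 100 bp to 7.09% (5.83 to 8.59) at 401 to 800 bp, and in the 6 width classes it stayed within that range. Among PriSG-A regions absent from SG-A it ran from 3.64% to 10.3% (3.58 to 26.4, 3 of 29 regions). Of 1241 PriSG-A regions over 1600 bp, none was absent from SG-A.

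**Figure D5:**
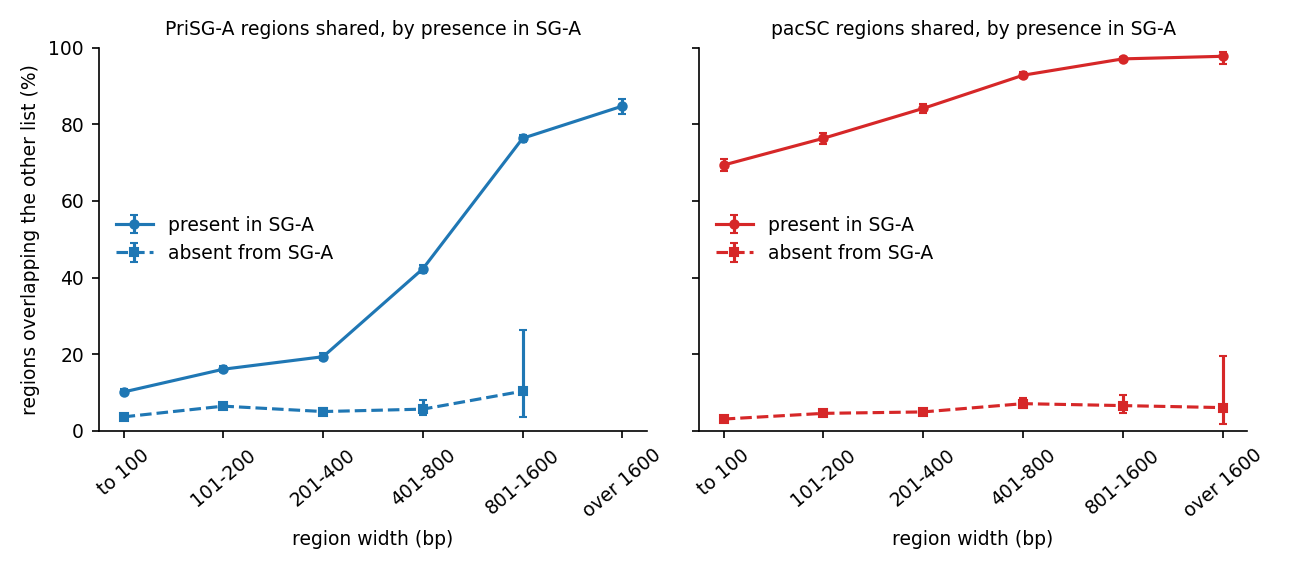
Percent of PriSG-A regions that overlap pacSC (left, blue) and of pacSC regions that overlap PriSG-A (right, red), by region width in bp, for regions present in the SG-A list (solid) or absent from it (dashed). Error bars are 95% Wilson intervals. The solid lines rise with width, and the dashed lines stay at 10.3% or less.

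Beside shared regions present in SG-A, the regions shared by PriSG-A and pacSC and absent from SG-A were narrow and weak. Their median width was 106 bp in PriSG-A (100 to 113) and 147.5 bp in pacSC (131 to 165), against 782 and 395 bp for shared regions present in SG-A. Their median area per bp was 0.399 in PriSG-A and 0.543 in pacSC, against 1.15 and 0.835. In PriSG-A 0 of the 698 reached a −log10 q of 5 (upper Wilson limit 0.547%), and in pacSC 25 of 654 did (3.82%). Over the whole lists 9.40% and 10.8% reached it. The 0 was not particular to the members, as 0 of 14689 PriSG-A regions in neither SG-A nor pacSC reached it either. Of pacSC regions in neither spermatogonial list, 279 of 14685 did (1.90%, 1.69 to 2.13), a smaller share than of the pacSC members (2.60 to 5.58). PriSG-A regions listed in neither SG-A nor pacSC had a median width of 100 bp and an area per bp of 0.376. For pacSC regions in neither spermatogonial list the medians were 112 bp (110 to 114) and 0.462 per bp (0.456 to 0.467), below those of the pacSC members with no overlap of intervals (0.516 to 0.587 per bp for the members).

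In pairs of this group the pacSC side was more often the wider. Of 529 one-to-one pairs with neither region in SG-A, the pacSC region was the wider in 319 (60.3%, 56.1 to 64.4), with a median ratio of 1.21 (1.13 to 1.32). Pairs with both regions in SG-A had a ratio of 0.758 (0.747 to 0.767) and a wider pacSC side in 25.8% of 9248. The PriSG-A sides of the former were also narrower, with a median of 109 bp against 791 bp. At matched PriSG-A width the contrast in the wider side was not seen in any class that held both kinds of pair. Where the PriSG-A region had at most 100 bp, the pacSC side was wider in 81.4% (76.0 to 85.9) of pairs with neither in SG-A and in 81.1% (77.2 to 84.4) of pairs with both. At 101 to 200 bp the shares were 54.6% of 152 and 57.9% of 675, and at 401 to 800 bp 21.7% of 23 and 25.3% of 2479. At 201 to 400 bp the shares were 33.3% of 114 and 34.9% of 1088, while the median ratios were 0.533 (0.415 to 0.780) and 0.801 (0.768 to 0.836). At 401 to 800 bp the median ratios were 0.231 (0.192 to 0.721) and 0.727 (0.708 to 0.752). Intervals of the ratio overlapped at up to 100 bp, with medians of 1.87 and 1.57, and at 101 to 200 bp, with 1.11 and 1.09. At 801 to 1600 bp only 3 pairs had neither region in SG-A. Summits of the pairs with neither region in SG-A lay a median of 45 bp apart (39 to 52), against 71 bp for pairs with both in SG-A. Where the narrower region had at most 100 bp, the medians were 40.5 bp (34 to 49) and 46 bp (43 to 51).

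Many members lay close to an SG-A region, and others far from one. Of the 698 PriSG-A members, 237 (34.0%, 30.5 to 37.5) lay within 1000 bp of an SG-A region, 31 between 1000 and 3000 bp, and 80 more than 100000 bp away. The nearest lay 2 bp off, and the median was 9708.5 bp. At the limit of the rule, 10 members had an SG-A region within 10 bp, and 12 shared PriSG-A regions overlapped one by 10 bp or less. Of PriSG-A regions in neither SG-A nor pacSC, 33.1% (32.4 to 33.9) lay within 1000 bp of SG-A, and the intervals overlap. In pacSC they do not: 32.1% (28.6 to 35.8) of the members lay within 1000 bp, against 12.8% (12.3 to 13.4) of pacSC regions in neither spermatogonial list. The pacSC members overlap PriSG-A regions by the rule, so their share is not independent of that in PriSG-A. These 2 pacSC classes also differed in place, with 17.3% and 37.4% in the distal 10 Mb. The part of either in the contrast was not tested.

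The round spermatid list overlapped 23.7% (23.0 to 24.5) of shared PriSG-A regions and 0.534% (0.468 to 0.610) of the rest. Over the whole PriSG-A list it was 6.49%. For pacSC the values were 22.2%, 6.96% and 14.2%. The PriSG-A regions were split by overlap with pacSC, and 4659 pacSC regions overlapped rST. The PriSG-A contrasts in rST overlap, also those of the members, are therefore not independent of the rule. Of the members absent from SG-A, 70 of 698 in PriSG-A (10.0%, 8.01 to 12.5) and 73 of 654 in pacSC (11.2%, 8.97 to 13.8) overlapped rST. PriSG-A regions in neither SG-A nor pacSC did so in 18 of 14689 cases (0.123%), and pacSC regions in neither spermatogonial list in 7.48% (7.07 to 7.92). Members over 1000 bp from SG-A overlapped rST in 9.98% of 461 cases and those nearer in 10.1% of 237. At matched width, the rST overlap of shared and not shared pacSC regions was 6.51% each at 101 to 200 bp and 49.3% against 23.5% at 801 to 1600 bp. For PriSG-A the values were 9.09% against 0.204% and 34.2% against 2.59%. Overlap with rST thus rose with width, and no values at matched width were taken for the members.

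The members absent from SG-A were spread over many windows and denser near the distal end. They also lay in the first 10 Mb more often than shared regions present in SG-A. PriSG-A members occupied 524 windows of 1 Mb, 391 of them with a single member, and at most 5 fell in a window, on chromosome 12 from 120000001 to 121000000. They numbered from 0.157 per Mb on chromosome 9 to 0.434 on chromosome 14. They made up 2.24% of shared PriSG-A regions on chromosome 11 and 9.28% on chromosome 14. In the distal 10 Mb lay 20.2% (17.4 to 23.3) of the PriSG-A members, against 15.4% (14.8 to 16) of shared regions present in SG-A and 6.06% (5.68 to 6.46) of PriSG-A regions in neither other list. Of the pacSC members, 17.3% (14.6 to 20.4) lay there, against 13.1% (12.6 to 13.6) of shared regions present in SG-A and 37.4% (36.6 to 38.2) of pacSC regions in neither spermatogonial list. Of all regions, 8.92% in PriSG-A and 25.4% in pacSC lay in the distal 10 Mb. The PriSG-A members were thus more often distal than their whole list, and the pacSC members less often. PriSG-A members numbered 1.89 per Mb in the last 1 Mb, 0.215 per Mb between 40 and 80 Mb from the end, where they were sparsest, and 0.283 beyond 80 Mb.

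The 10 strongest pairs absent from SG-A, ranked by the weaker of their 2 places by signal value, had PriSG-A signal values from 164 to 323 and pacSC values from 205 to 764. The first lay at chr8:99688384-99688859 in PriSG-A (476 bp, signal value 290) and at chr8:99687655-99688875 in pacSC (1221 bp, 764). It was 91230 bp from the nearest SG-A region, and its pacSC side was also listed in rST. The second was at chr6:13735481-13736059 in PriSG-A (267) and at chr6:13735524-13735919 in pacSC (605). The third, at chr2:85064587-85065040 (323) and at chr2:85064502-85064845 (296), was listed in rST on both sides. The median signal value of all members absent from SG-A was 47.5 in PriSG-A and 86.5 in pacSC. For shared regions present in SG-A it was 907 and 294.

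Of the remaining 7, the pair at chr1:45388377-45388676 in PriSG-A (258) and at chr1:45388332-45388663 in pacSC (255) had summits 3 bp apart, was listed in rST, and had an SG-A region 149 bp away. The pair at chr14:9969996-9970129 (176) and at chr14:9969999-9970129 (217) had nearly the same extent and was 82781 bp from SG-A. The others, by PriSG-A coordinates, were at chr13:8569190-8569719, at chr16:27586176-27586738, at chr6:135476580-135476774, at chr5:84318432-84318850 and at chr2:86373472-86373724. In all, 4 of the 10 were also listed in rST on at least one side, 2 lay within 1000 bp of an SG-A region, and the pacSC side was the wider in 5.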

How the data were processed

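The series holds 30 samples, of which 10 are ATAC-seq libraries. The 8 Hi-C and 12 ChIP-seq or input samples were not analysed here. The authors deposited 1 peak list per stage, which the labels give for every library of that stage. One file name is garbled, and that list was taken as PriSG-A because the other 3 match their labels. The submitters' processing notes list SAMtools, Bowtie and Bowtie2 2.2.5, with no step assigned. Peak caller, its settings and read depth: not given in the sources used here.

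For each peak the deposited lists hold the position, summit offset, score, signal value and −log10 q-value. Dividing the deposited signal by the width and multiplying by 1000 gives the deposited score, capped at 1000, within a tolerance of 1 for 100% of peaks, so the deposited signal is an area. The submitters' notes name mm10, but regions run past the last gene of a GRCm38 table on 10 of 19 autosomes, by up to 7.20 Mb on chromosome 7. The assembly was taken as unknown, positions are printed with the starts of the files converted to 1-based, and no gene or sequence was assigned.

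Overlaps were counted in Python 3.11.15 with numpy 2.4.6 and pandas 2.3.3, and the code was tested on simulated regions. Shares have 95% Wilson intervals, differences Newcombe intervals, and medians order-statistic intervals. The distal zone is the last 10 Mb of the listed span. Named regions were chosen by rank: by signal value in pairs absent from SG-A and in regions not shared, by area per bp, by number of partners and by summit distance. The comparison and its rules were chosen with earlier results of these data known. The alternatives for area per bp and for the share of distal regions that were shared were chosen after seeing the data. The settings tried were a 50% reciprocal overlap, a −log10 q of at least 5, lists of equal length, no regions over 5000 bp, no distal zone, other zone widths, all pairs, and a 1000 bp distance from SG-A.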

Additional observations from a re-analysis of the deposited data

How the results depend on the processing

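No paired analysis was possible because the replicates of a stage are merged into 1 list, which also means that none could be left out. Of 57 alternative values over 13 results, 16 stayed within the interval of the reported value and 41 moved beyond it.

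With a reciprocal overlap of at least 50% (absence from SG-A kept at 0 bp), the shared share was 13.2% in PriSG-A and 21.8% in pacSC, 3.30% of either were absent from SG-A, median widths were 857.5 and 725 bp and areas per bp 1.35 and 1.28, the width ratio was 0.860, 15.2% of shared pacSC regions were distal, and 22.4% of distal PriSG-A and 13.0% of distal pacSC regions were shared. With every list limited to −log10 q of 5 or more, the same values were 39.3% and 57.2% shared, 0.0498% and 0.0494% absent from SG-A, 1279 and 1072 bp, 2.09 and 2.14 per bp, a ratio of 0.855, 16.5% distal, and 78.5% and 33.1% of distal regions shared. Regions shared but absent from SG-A were thus nearly gone among strong regions. In the full lists no PriSG-A region absent from SG-A reached this limit, shared (0 of 698) or not (0 of 14689). The limit removed them all, so the low share cannot describe shared regions in particular. With lists of equal length by −log10 q, 37.5% of PriSG-A and 43.7% of pacSC regions were shared, and 5.55% and 5.16% of these were absent from SG-A. Without the distal 10 Mb, 23.8% and 55.0% were shared. Requiring no SG-A region within 1000 bp left 3.30% and 2.85% of shared regions absent from SG-A, and leaving out regions over 5000 bp gave 4.68% in pacSC. Over all overlapping pairs the width ratio was 0.653 and the summit distance 113 bp. With a distal zone of 5 Mb, 7.70% of shared pacSC regions were distal, and 52.9% of distal PriSG-A and 20.1% of distal pacSC regions were shared. With 20 Mb the values were 21.6%, 38.9% and 29.9%. The causes were not tested.

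Read depth was not at hand, and a region below the calling threshold at one stage counts as absent there. List lengths differ, and 3 libraries stand behind PriSG-A and SG-A against 2 behind pacSC and rST. Libraries of spermatogonia came from young mice and those of spermatocytes from adults, so stage and age cannot be told apart.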
